A study of Mus musculus with 21 samples.

Results

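Leukotrienes are lipid mediators made from arachidonic acid, and the 7 genes described here encode the enzymes of that route. They were taken by symbol from the 43432 gene identifiers of the 21 count files, and all 7 (Pla2g4a, Alox5, Alox5ap, Ltc4s, Lta4h, Mgst2 and Mgst3) were found and passed the filter on low counts in every fit. Tuft cells are scattered epithelial cells with chemosensory receptors. Their mRNA was sequenced from small intestine (3 libraries), colon (4), gall bladder (3), thymus (4) and trachea (4), and that of small intestine epithelium without tuft cells (3) served as a reference. All mice were naive and of the strain C57BL6.Il25(Flare25/Flare25), which carries a fluorescent reporter at the Il25 gene on both alleles. Cells were sorted as DAPI-, CD45- and EPCAM+, with tuft cells taken as Flare25+ and the reference as Flare25-. Each library outside the trachea came from 1 male mouse aged 12 weeks. Each trachea library was a pool of 4 mice: pool 1 was of males aged 12 weeks, pool 2 of males aged 16 weeks, pool 3 of females aged 16 weeks and pool 4 of females aged 14 weeks. Il25 expression drives the gate itself, so a tuft cell with low reporter signal would not be in the tuft libraries and could be in the reference.

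Leukotriene synthesis begins when calcium-activated cytosolic phospholipase A2, the product of Pla2g4a, frees arachidonic acid from membrane phospholipid. Arachidonate 5-lipoxygenase (Alox5), helped by 5-lipoxygenase-activating protein (Alox5ap, also called FLAP), turns it into the unstable epoxide leukotriene A4. From there the route forks: leukotriene C4 synthase (Ltc4s) joins the epoxide to glutathione and so opens the cysteinyl leukotriene branch, whereas leukotriene A4 hydrolase (Lta4h) gives leukotriene B4. Mgst2 and Mgst3 are microsomal glutathione S-transferases of the same membrane protein family (MAPEG) as Ltc4s and Alox5ap, and Mgst2 can also form leukotriene C4. In the gut, cysteinyl leukotrienes from tuft cells are known to act on group 2 innate lymphoid cells.

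Summed gene counts were 25739248 to 73574745 per library, while sorted cells ranged from 130 to 453 in trachea, 1350 to 2700 in thymus and gall bladder, 13500 to 16000 in colon and 35000 to 57000 in the small intestine groups. All 10 tuft markers checked were called higher in small intestine tuft cells than in the reference, and their summed level was 211 to 410 CPM (counts scaled to a common library total) in the reference against 5187 to 30427 CPM in the tuft libraries. The reference held goblet, Paneth and enteroendocrine markers well above the tuft libraries of the same tissue (all 18 called lower in tuft cells). Of 8 enterocyte markers, 1 was called higher and 0 lower in tuft cells, and their sum was 23775 to 29057 CPM in small intestine tuft against 12989 to 14859 CPM in the reference. Gall bladder library 3 stood apart: it had the lowest total of its group, 29031373 counts, 15248 genes above 0 against 17538 and 18193 in the other 2, and a Lta4h level over 10 CPM while both others were under 5 CPM. Results that rest on it are given with and without it. Small intestine alone gave non-tuft cells. Small intestine, colon and gall bladder were all released with EDTA, whereas thymus and trachea each had a digestion of their own, so tissue and dissociation cannot be told apart in comparisons with these 2. The number of sorted cells differed between tissues throughout. In sorted bulk libraries fewer cells with a transcript and less transcript per cell cannot be told apart.

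Promoter windows, taken from RefSeq on build GRCm38.p6 as 250 bases before to 50 bases after a start site, were found for 6 of the 7 genes. Those of Alox5 and Ltc4s are shown because these genes rose together by the largest steps in the data below, and those of Lta4h and Mgst3 because their levels followed other orders of tissues. Coordinates and strands are chr6:116461129-116461428 (minus) for Alox5, chr11:50238483-50238782 (minus) for Ltc4s, chr10:93453146-93453445 (plus) for Lta4h and chr1:167393792-167394091 (minus) for Mgst3. Capitals mark the GC box GGGCGG, which was searched on both strands along with the octamer ATGCAAAT, read by POU factors, and the TATA box TATAAA; neighbouring GC boxes in Mgst3 run into each other.
Alox5: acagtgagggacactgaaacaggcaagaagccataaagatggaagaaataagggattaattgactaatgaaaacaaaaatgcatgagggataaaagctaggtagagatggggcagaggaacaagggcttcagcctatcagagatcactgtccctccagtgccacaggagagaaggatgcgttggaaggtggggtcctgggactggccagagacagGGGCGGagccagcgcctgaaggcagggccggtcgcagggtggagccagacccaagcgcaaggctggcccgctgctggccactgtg
Ltc4s: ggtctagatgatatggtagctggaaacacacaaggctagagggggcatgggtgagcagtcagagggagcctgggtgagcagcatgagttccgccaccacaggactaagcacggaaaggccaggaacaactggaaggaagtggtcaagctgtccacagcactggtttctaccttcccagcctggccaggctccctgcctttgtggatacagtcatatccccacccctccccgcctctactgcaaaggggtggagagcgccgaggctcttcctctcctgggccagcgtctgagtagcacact
Lta4h: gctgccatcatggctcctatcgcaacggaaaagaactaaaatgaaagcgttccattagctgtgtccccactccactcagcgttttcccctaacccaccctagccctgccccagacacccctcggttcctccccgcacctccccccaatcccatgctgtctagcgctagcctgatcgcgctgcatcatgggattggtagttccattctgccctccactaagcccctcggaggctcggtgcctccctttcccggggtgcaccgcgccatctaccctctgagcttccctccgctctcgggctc
Mgst3: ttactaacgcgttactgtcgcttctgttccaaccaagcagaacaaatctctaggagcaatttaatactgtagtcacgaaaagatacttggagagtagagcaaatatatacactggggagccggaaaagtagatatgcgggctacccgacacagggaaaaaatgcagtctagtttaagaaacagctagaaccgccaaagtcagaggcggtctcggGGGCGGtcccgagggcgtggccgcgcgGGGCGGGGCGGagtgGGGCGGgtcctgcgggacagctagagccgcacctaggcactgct

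The Alox5 window held 1 GC box, starting 35 bases before the start site. The Mgst3 window held 4 GC boxes and 21 CpG dinucleotides. The Lta4h window held 16 CpG and that of Ltc4s 6, with none of the 3 motifs in either. Mgst2 had 0 CpG and a TATA box on each strand, starting 34 and 32 bases before the start site, so that the matches overlap. Pla2g4a has 2 windows, of 45.33% and 41.0% GC. The second has a TATA box on the strand opposite the gene, starting 200 bases before its start site. The octamer was in no window of the 6 genes and in 1.736% of the 32841 windows of RefSeq mouse promoters, the GC box in 35.67% and the TATA box in 13.62% of them. The median window had 52.67% GC and 7 CpG. These matches describe letters only.

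The first comparison asks which of these genes are set apart in small intestine tuft cells from the rest of the same epithelium. Alox5, Alox5ap and Ltc4s rose by 65.4 to 109-fold, Pla2g4a by about 4-fold and Mgst3 by about 3-fold, while Lta4h and Mgst2 were at similar levels in both. To be called, a gene needed both an adjusted p below 0.05 and a change of 2-fold or more. By that rule 5 of the 7 were higher and 0 lower, where 26.9% of the 16063 genes tested were called in either direction (13% higher, 13.9% lower). The median log2 fold change was 2.04 over the 7 genes and -0.03 over all genes. Leaving out any 1 of the 6 libraries left the count at 5.

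Alox5 (ENSMUSG00000025701, chromosome 6, 116410077 to 116461178, minus strand, GRCm38), the enzyme that commits arachidonic acid to the route, was at 9.18, 6.90 and 12.1 CPM in reference libraries 1, 2 and 3. It was at 1065, 897 and 984 CPM in small intestine tuft libraries 2, 3 and 4. The groups were far from overlapping, and the log2 fold change was 6.77 ± 0.24 (SE; edgeR adjusted p = 3.34e-08), the 51st smallest p of all genes. Its partner Alox5ap (ENSMUSG00000060063, chromosome 5, 149264767 to 149288153, plus strand), which presents arachidonic acid to it, was at 10.1, 7.64 and 11.7 CPM in the reference. In tuft cells Alox5ap was at 733, 557 and 558 CPM. All 3 tuft libraries again lay far above all 3 reference libraries, by 6.03 ± 0.22 on the log2 scale (edgeR adjusted p = 3.64e-08).

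Ltc4s (ENSMUSG00000020377, chromosome 11, 50236461 to 50238616, minus strand), at the entry to the cysteinyl branch, was at 1.90, 1.41 and 2.77 CPM in the reference, from 106, 69 and 190 counts. In tuft cells it was at 134, 120 and 148 CPM. The groups did not overlap, and the difference was 6.09 ± 0.25 on the log2 scale (edgeR adjusted p = 8.94e-08). An exon of the antisense gene Gm26542 overlaps Ltc4s by 186 bases, and the sources used here do not say whether the authors counted by strand. Gm26542 was at 2.59 ± 0.43 CPM in the reference and 7.51 ± 1.04 CPM in tuft cells (SD, n = 3 each), so it was at a small fraction of Ltc4s in the latter and at a level like it in the former.

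Pla2g4a (ENSMUSG00000056220, chromosome 1, 149829618 to 149961290, minus strand), the phospholipase at the head of the route, was at 19.9, 10.4 and 12.9 CPM in the reference. It was at 53.3, 55.1 and 62.4 CPM in tuft cells. The tuft libraries were all higher, but by a smaller step than those above, 2.04 ± 0.23 on the log2 scale (edgeR adjusted p = 8.34e-05). Mgst3 (ENSMUSG00000026688, chromosome 1, 167371966 to 167393841, minus strand), a glutathione transferase of the same protein family as Ltc4s, was at 168, 197 and 162 CPM in the reference and was thus already well expressed there. In tuft cells Mgst3 was at 449, 504 and 538 CPM, with no overlap and a difference of 1.57 ± 0.14 on the log2 scale (edgeR adjusted p = 1.58e-05).

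Lta4h (ENSMUSG00000015889, chromosome 10, 93453411 to 93484875, plus strand), which makes leukotriene B4, was at 100.3, 108 and 96.8 CPM in the reference and at 97.4, 83.0 and 107 CPM in tuft cells. The libraries of both groups were interleaved. The log2 difference was -0.03 ± 0.13, with a 95% interval of -0.32 to 0.27 (edgeR adjusted p = 0.891). In this fit of 6 libraries the interval excludes a 2-fold change in either direction. In the fit of all 21 libraries it was -1.65 to 1.48, which does not. Mgst2 (ENSMUSG00000074604, chromosome 3, 51660360 to 51682677, plus strand) was at 79.1, 104 and 94.0 CPM in the reference and at 137, 90.0 and 92.0 CPM in tuft cells. Its groups overlapped as well, with a log2 difference of 0.26 and a 95% interval of -0.13 to 0.66 (edgeR adjusted p = 0.263). The sum of enterocyte markers given above was higher in the tuft libraries than in the reference, and its part in the levels of Lta4h, Mgst2 and Mgst3 was not tested.

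**Figure D1:**
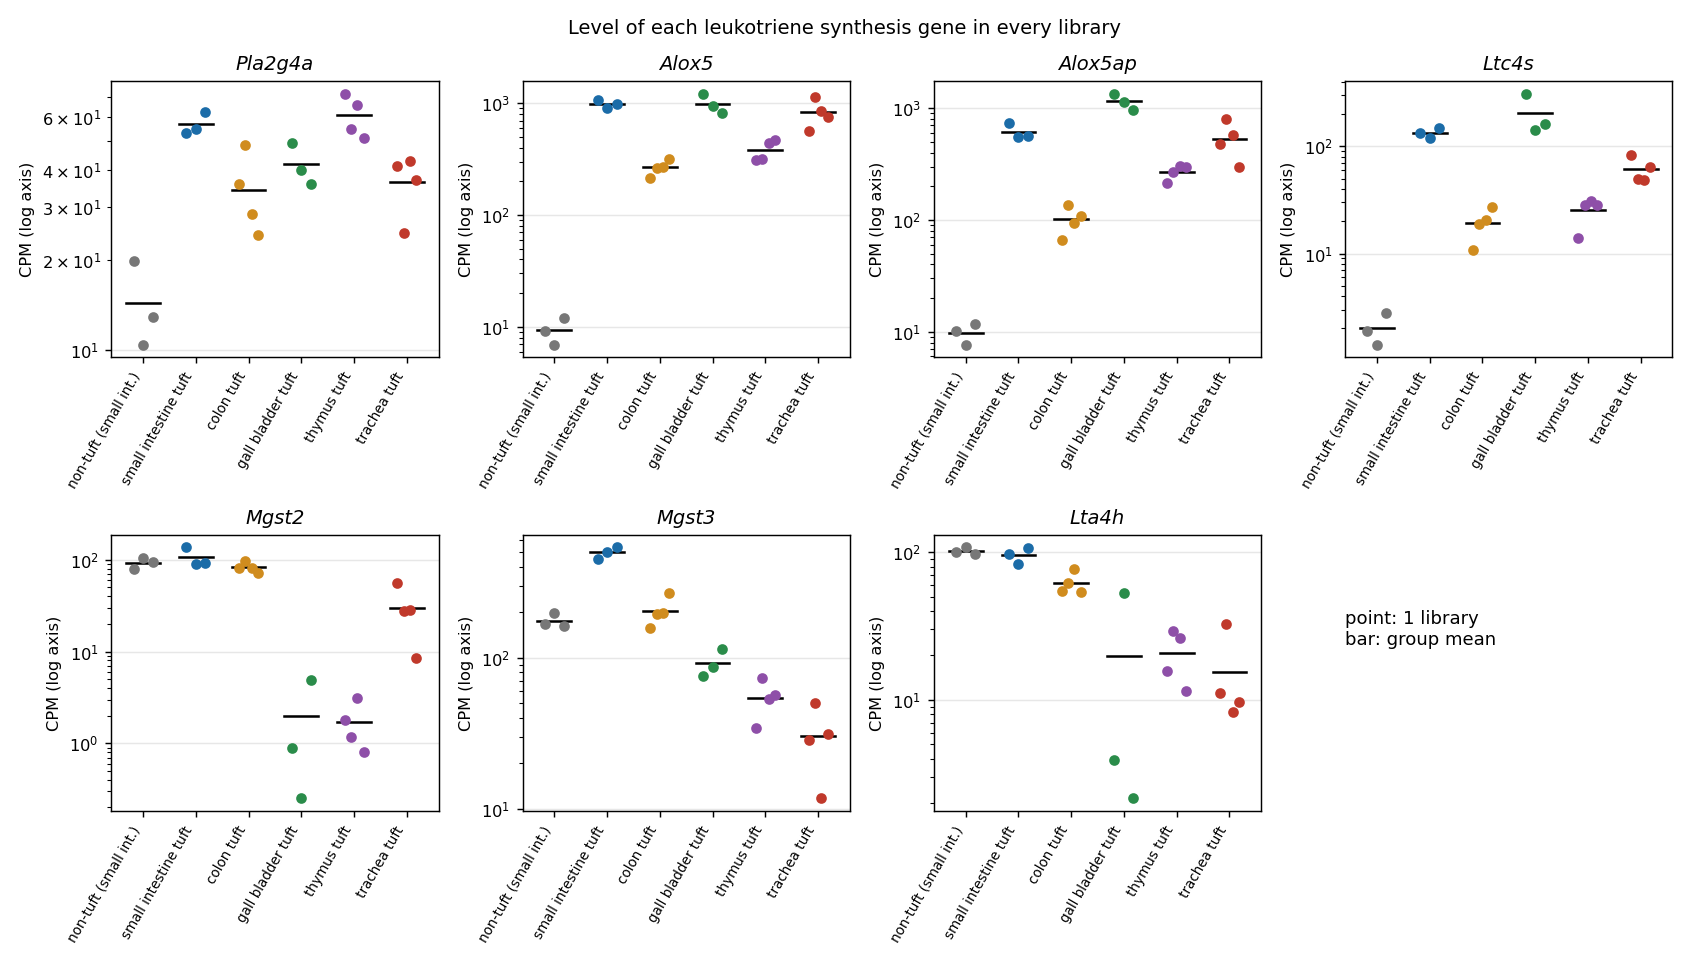
Level of each of the 7 genes in every library, in CPM on a log axis, by group; a point is 1 library and a bar the group mean. Alox5, Alox5ap and Ltc4s are at 1.41 to 12.1 CPM in the reference, below every tuft library for the same gene, whereas Lta4h, Mgst2 and Mgst3 fall to their lowest levels in gall bladder, thymus or trachea.

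The next comparison sets the tuft cells of each tissue against the small intestine reference, in 1 fit of all 21 libraries (20335 genes). Alox5, Alox5ap, Ltc4s and Pla2g4a rose in the tuft cells of all 5 tissues, and their lowest tuft library was above the highest reference library in each. How many of all genes lacked overlap in this way was not counted, here or in the other comparisons. Lta4h fell in gall bladder, thymus and trachea, Mgst2 in gall bladder and thymus, and Mgst3 in thymus and trachea. The 5 contrasts share the 3 reference libraries, and outside the small intestine they compare tissue as well as cell type.

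In small intestine tuft cells 5 of the 7 genes were called higher and 0 lower, where 6.51% of all genes were called in either direction. In colon 4 were higher and 0 lower (7.67% of all genes called), in gall bladder 4 higher and 2 lower (26% called), in thymus 4 higher and 3 lower (27.5% called) and in trachea 4 higher and 2 lower (31.2% called). Higher calls alone were 3.86%, 4.4%, 12.4%, 17.2% and 14% of all genes in that order of tissues, and lower calls 2.65%, 3.27%, 13.5%, 10.3% and 17.2%. The share of all genes called depended on the fit: with limma voom it was 28.9% in small intestine and 22.6% in colon, with 5 and 4 of the 7 genes called as before. The median log2 fold change of the 7 genes was 1.98 in small intestine, 1.25 in colon, 1.54 in gall bladder, 2.08 in thymus and 1.34 in trachea. Over all genes the medians were -0.15, 0, -0.21, 0.22 and -0.04.

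Alox5 had log2 fold changes of 6.71 in small intestine, 4.83 in colon, 6.72 in gall bladder, 5.35 in thymus and 6.46 in trachea, and the largest edgeR adjusted p of the 5 was 7.86e-10. Alox5ap had log2 fold changes of 5.97, 3.37, 6.88, 4.79 and 5.77 in the same order, with a largest adjusted p of 2.84e-07 in colon. Ltc4s had 6.04, 3.24, 6.65, 3.64 and 4.91, with a largest adjusted p of 1.39e-05, also in colon. For these genes the smallest step was thus always in colon, where it still came to 28.4-fold for Alox5, 10.3-fold for Alox5ap and 9.47-fold for Ltc4s.

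Pla2g4a had log2 fold changes of 1.98, 1.25, 1.54, 2.08 and 1.34, from 2.38-fold in colon to 4.24-fold in thymus. Its call in colon (edgeR adjusted p = 0.0269) was lost with no filter on low counts (adjusted p = 0.0891). It was also lost without colon library 1 or 2 or reference library 2 or 3, at an adjusted p of up to 0.191, always with the same sign.

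Lta4h went the other way in 3 tissues. Its log2 fold change was -2.36 ± 0.79 in gall bladder (edgeR adjusted p = 0.0312), -2.30 ± 0.71 in thymus (0.0195) and -2.71 ± 0.72 in trachea (0.00632), and all libraries of these tissues lay below the reference. In small intestine and colon it was -0.09 and -0.72 and was not called. All colon libraries nevertheless also lay below the reference, at 54.0 to 76.5 CPM against 96.8 to 108 CPM. The gall bladder call was lost without gall bladder library 1 or 4 (adjusted p = 0.105 and 0.0847) or without any 1 reference library. The thymus call was lost without thymus library 1 or 4 or reference library 2, at adjusted p values of 0.0534 to 0.0568. The trachea call was lost when only pools 1 and 2, the males, were kept (log2 fold change -2.20, adjusted p = 0.0757).

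Mgst2 was 45.6-fold lower in gall bladder (log2 fold change -5.51 ± 0.84; edgeR adjusted p = 4.27e-05) and 53.7-fold lower in thymus (-5.75 ± 0.75; adjusted p = 7.18e-06). In small intestine and colon its log2 differences were 0.20 and -0.16, neither called. In trachea it was -1.61, with all pools below the reference, but the call was missed at an adjusted p of 0.0600. It was called there by DESeq2 (0.0380), by limma voom (0.00854), under the stricter filter of 5 CPM (0.0432) and without trachea pool 1 (0.0236).

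Mgst3 ran from higher to lower along the tissues. Its log2 fold change was 1.50 ± 0.37 in small intestine (edgeR adjusted p = 0.0149), 0.22 in colon (0.889), -0.93 in gall bladder (0.0669), -1.69 in thymus (0.000882) and -2.53 in trachea (9.03e-06). In this fit of 21 libraries the small intestine call was lost without reference library 1 or 3 or tuft library 4 (adjusted p up to 0.0776), while the fit of the 6 small intestine libraries kept it in each such case. The share of counts from mitochondrial genes, often read as a sign of RNA quality, fell along a similar order of tissues. It was 24.1 to 33.5% in small intestine tuft, 17.7 to 23.0% in colon, 14.8 to 17.0% in gall bladder, 5.57 to 10.1% in trachea and 4.38 to 5.97% in thymus, against 18.6 to 23.7% in the reference. Its part in the levels of Lta4h, Mgst2 and Mgst3 was not tested.

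**Figure D2:**
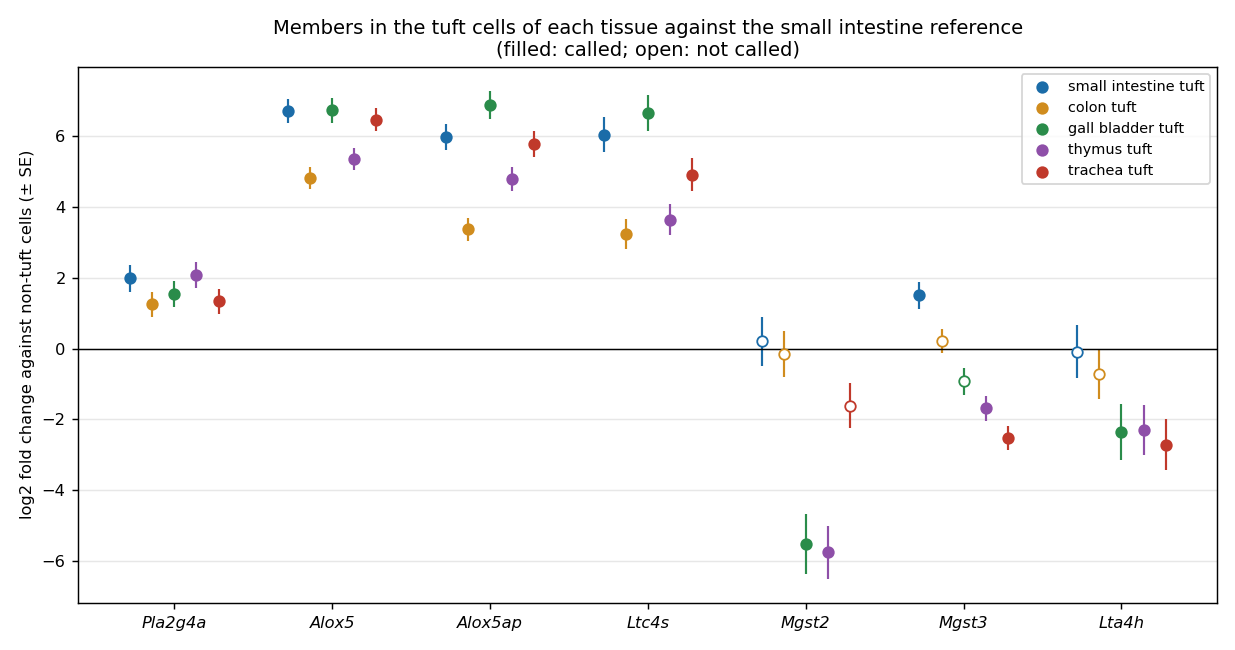
Log2 fold change of each of the 7 genes in the tuft cells of 5 tissues against the small intestine reference, with standard errors, from the fit of 21 libraries; filled points were called and open points were not. Alox5, Alox5ap, Ltc4s and Pla2g4a lie above 0 in all 5 tissues, and Lta4h, Mgst2 and Mgst3 lie below 0 in gall bladder, thymus and trachea.

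The 18 tuft libraries were then compared with each other, which needs no reference. Each tissue was set against the mean of the other 4, and each of the 10 pairs of tissues was tested (19850 genes). Small intestine tuft cells had 4 of the 7 genes higher and 0 lower (17.5% of all genes called), colon 2 higher and 3 lower (16.5%), gall bladder 2 higher and 1 lower (21.5%), thymus 0 higher and 3 lower (32.4%) and trachea 0 higher and 1 lower (31%). In that order of tissues, 10%, 10.7%, 12.7%, 26.8% and 17.3% of all genes were called higher and 7.45%, 5.78%, 8.79%, 5.64% and 13.7% lower. Between pairs, the share of all genes called in either direction was lowest for colon against small intestine (8.36%), gall bladder against small intestine (14.8%) and gall bladder against colon (18.2%). It was 25.7% for thymus and 27.8% for trachea against small intestine, 25.6% for thymus and 27.1% for trachea against colon, 30.6% for thymus and 23.8% for trachea against gall bladder, and 27.9% for trachea against thymus. Set beside the shares for single tissues, the 7 genes were called most often in colon, which had the lowest means of Alox5, Alox5ap and Ltc4s and the second highest of Lta4h, Mgst2 and Mgst3. The tuft markers as a whole were also lowest in colon. Their median summed level was 26561 CPM in small intestine, 22038 in gall bladder, 11960 in trachea, 6909 in thymus and 5979 in colon. The part of this general difference in the levels of the 7 genes was not tested. The trachea count was not stable: it was 2 under DESeq2, under the filter of 5 CPM and with pools 1 and 2 alone, and up to 3 when 1 library was left out (gall bladder library 4).

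Of these genes, Pla2g4a varied least between tuft tissues by the range of means. It was at 72.1, 54.7, 65.8 and 51.3 CPM in thymus libraries 1 to 4, at 53.3 to 62.4 CPM in small intestine, at 49.2, 40.1 and 36.0 CPM in gall bladder libraries 1, 3 and 4, at 41.2, 24.5, 42.7 and 37.1 CPM in trachea pools 1 to 4, and at 35.9, 48.4, 28.5 and 24.3 CPM in colon libraries 1 to 4. Thymus was highest and colon lowest by the means, which were 1.78-fold apart, and no neighbours in that order were called different; small intestine and gall bladder alone among neighbours did not overlap. Every thymus and small intestine library was above every library of gall bladder, trachea and colon, but none of the 10 pairs was called. Thymus against colon came closest, at 0.99 ± 0.32 on the log2 scale (edgeR adjusted p = 0.0279), and passed the fold threshold under DESeq2 (1.09), limma voom (1.11) and RLE scaling (1.09).

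Alox5 was at 1219, 944 and 810 CPM in gall bladder libraries 1, 3 and 4, at 897 to 1065 CPM in small intestine and at 559, 1143, 857 and 756 CPM in trachea pools 1 to 4. It was at 312, 314, 439 and 471 CPM in thymus libraries 1 to 4 and at 212, 264, 270.0 and 319 CPM in colon libraries 1 to 4. The first 3 tissues overlapped and no pair among them was called, and every library of them was above every thymus and colon library. Of the 10 pairs, 5 were called. Colon was lower than the mean of the other 4 by 1.54 on the log2 scale (edgeR adjusted p = 1.70e-05). Trachea and thymus differed by 0.99 ± 0.23 (adjusted p = 0.00358), just under the fold threshold, and the pair was called without any 1 of 6 of these 8 libraries. Thymus and colon differed by 0.67 (adjusted p = 0.0358), also under it.

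Alox5ap had a wider range, 11.4-fold between the highest and lowest mean. Gall bladder was highest, at 1350, 1141 and 972 CPM, followed by small intestine at 557 to 733 CPM, and trachea at 475, 795, 570 and 296 CPM in pools 1 to 4. Thymus followed at 213, 268, 306 and 296 CPM, and colon was lowest at 66.5, 135, 94.3 and 109 CPM. Gall bladder lay above every other tuft library and colon below every one, so that both ends of the order were free of overlap. Against the mean of the other 4 the log2 difference was 1.89 ± 0.20 for gall bladder (edgeR adjusted p = 2.09e-06) and -2.54 ± 0.25 for colon (adjusted p = 3.70e-07). Among neighbours in the order, gall bladder and small intestine differed by 0.91 (adjusted p = 0.0451, under the fold threshold), small intestine and trachea by 0.21 (0.611), trachea and thymus by 0.85 (0.0188, under the fold threshold), and thymus and colon by 1.57 (0.000263). Of the 10 pairs, 7 were called. The call for thymus against small intestine (-1.06) fell under the fold threshold with DESeq2 or RLE scaling (-0.95 each) and without small intestine library 2 (-0.92). That for trachea against gall bladder (-1.12) was lost with trachea pools 1 and 2 alone (-0.86, adjusted p = 0.0528), without gall bladder library 1 (-0.99) and without trachea pool 4 (-0.95). Trachea against thymus was called with pools 1 and 2 alone (1.18), without thymus library 3 (1.03) and without trachea pool 4 (1.02).

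Ltc4s was at 310, 143 and 161 CPM in gall bladder, where library 1 was well above the other 2, and at 120 to 148 CPM in small intestine. Trachea pools 1 to 4 were at 82.9, 49.8, 48.1 and 63.9 CPM, thymus libraries 1 to 4 at 14.1, 28.2, 31.0 and 28.3 CPM, and colon libraries 1 to 4 at 10.7, 18.8, 20.6 and 26.9 CPM. The groups fell into a high pair, a middle tissue and a low pair, with overlap within each pair and none between. Gall bladder and small intestine differed by 0.62 (edgeR adjusted p = 0.310), small intestine and trachea by 1.11 (0.0311), trachea and thymus by 1.16 (0.0178) and thymus and colon by 0.54 (0.291). Of the 10 pairs, 8 were called. The step from small intestine to trachea was lost with trachea pools 1 and 2 alone (adjusted p = 0.111) and without any 1 small intestine library or trachea pool 2 or 3 (adjusted p up to 0.124). The antisense Gm26542 was at 33.7 ± 16.2 CPM in gall bladder (SD, n = 3), 20.5 ± 19.2 in trachea, 7.90 ± 3.48 in thymus and 2.08 ± 1.56 in colon (SD, n = 4), below Ltc4s in the mean of each tissue.

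Lta4h was at 83.0 to 107 CPM in small intestine and at 54.7, 61.8, 76.5 and 54.0 CPM in colon libraries 1 to 4. Thymus libraries 1 to 4 were at 15.7, 29.3, 26.3 and 11.5 CPM, and trachea pools 1 to 4 at 11.2, 32.9, 8.22 and 9.67 CPM. Gall bladder libraries 1, 3 and 4 were at 3.90, 53.3 and 2.14 CPM. Small intestine and colon were thus the high tissues, and in gall bladder 1 library was just under the lowest colon library while the other 2 were the lowest of all 21. The counts behind these were 154, 1489 and 82. They are of amplified RNA without molecular identifiers, so their error cannot be read from the counts alone. No neighbours in the order of means were called different, and 3 of the 10 pairs were called, namely thymus and trachea below small intestine and trachea below colon.

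Which tissue had least Lta4h depended on gall bladder library 3. Trachea against gall bladder was -0.40 on the log2 scale with all libraries and was not called, and turned to 2.37 (edgeR adjusted p = 0.0106) without it. Without it gall bladder was also called lower than small intestine (-5.01, adjusted p = 0.000156), colon (-4.34, adjusted p = 0.000276), thymus (2.83 higher in thymus, adjusted p = 0.00391) and the mean of the other 4 (-3.64, adjusted p = 0.000563). Small intestine was higher than the mean of the other 4 by 1.90 ± 0.55 (adjusted p = 0.0190), a call that was lost without any 1 of its own 3 libraries (adjusted p = 0.0582 to 0.0893). The call for thymus against small intestine (-2.08) was lost without any 1 of its 7 libraries (adjusted p up to 0.119) and under RLE scaling (-1.97, adjusted p = 0.0634). That for trachea against colon (-1.99) was lost without any 1 of its 8 libraries but trachea pool 2 (adjusted p up to 0.106). With trachea pools 1 and 2 alone, the calls for trachea below colon (-1.47, adjusted p = 0.256) and below small intestine (-2.13, adjusted p = 0.120) were both lost.

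Mgst2 showed the widest range of the 7 genes, 62.1-fold between means. Small intestine was at 90.0 to 137 CPM, colon at 80.8, 97.0, 80.4 and 72.0 CPM, and trachea pools 1 to 4 at 56.1, 27.7, 28.3 and 8.51 CPM. Gall bladder libraries 1, 3 and 4 were at 0.887, 0.251 and 4.89 CPM, from 35, 7 and 187 counts, and thymus was at 1.78, 1.18, 3.09 and 0.802 CPM. Trachea lay between the gut tissues and the others, with no overlap on either side. Small intestine and colon were not called different (0.38, edgeR adjusted p = 0.825), nor were colon and trachea called (1.45, adjusted p = 0.0977). Trachea was above gall bladder by 3.93 ± 0.80 (adjusted p = 0.00156), and gall bladder and thymus differed by 0.06 (adjusted p = 0.956). Of the 10 pairs, 7 were called. That for trachea below small intestine (-1.83, adjusted p = 0.0499999) lay at the threshold and was lost under 5 of the 7 other settings and without any 1 small intestine library or trachea pools 2, 3 or 4.

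Mgst3 was at 449 to 538 CPM in small intestine and at 157, 196, 197 and 267 CPM in colon libraries 1 to 4. It was at 75.2, 87.1 and 114 CPM in gall bladder, at 34.2, 73.7, 53.1 and 56.3 CPM in thymus and at 28.5, 50.2, 11.7 and 31.4 CPM in trachea. The order small intestine, colon, gall bladder, thymus and trachea had overlap between the last 2 only. Neighbours differed by 1.29 (edgeR adjusted p = 0.0258), 1.14 (0.0357), 0.63 (0.178, not called) and 0.95 (0.0379, under the fold threshold). Of the 10 pairs, 8 were called. The first of these steps was lost without any 1 of 6 of the 7 libraries involved (adjusted p up to 0.103) and the second without any 1 of 5 of its 7 (adjusted p up to 0.134), whereas small intestine stayed higher than the mean of the other 4 by 2.70 ± 0.25 (adjusted p = 1.60e-07). Trachea was lower than the mean of the other 4 by 2.32 on the log2 scale (adjusted p = 1.20e-05).

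Levels of different genes can be compared per kilobase of exon (RPKM, here TMM-scaled CPM over the length of the union of GENCODE M21 exons). In small intestine tuft cells the mean was 453 RPKM for Mgst3, 434 for Alox5ap, 239 for Alox5, 132 for Ltc4s, 28.7 for Mgst2, 15.7 for Lta4h and 8.91 for Pla2g4a. In gall bladder Alox5ap led at 813 RPKM, with Alox5 at 241, Ltc4s at 202, Mgst3 at 83.9 and the other 3 at 6.54 or less. Alox5ap also led in thymus (191 RPKM) and trachea (376 RPKM), and Mgst3 led in colon (186 RPKM) and in the reference (160 RPKM). Pla2g4a, at the head of the route, was at 9.54 RPKM or less in every group, below Alox5, Alox5ap and Ltc4s in every tuft tissue. In CPM its mean was above that of Ltc4s in colon (34.3 against 19.3) and thymus (61.0 against 25.4). It was below Ltc4s in the other tuft tissues. The order of Pla2g4a and Ltc4s in colon and thymus thus depends on the lengths used.

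**Figure D3:**
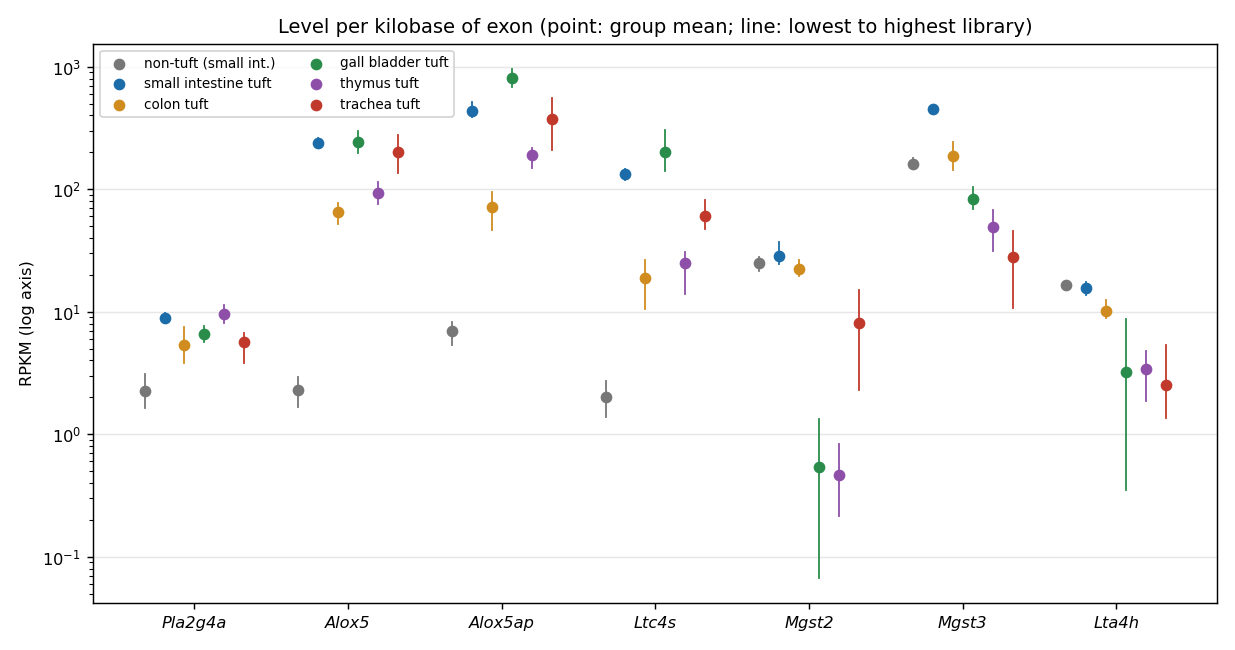
Level per kilobase of exon (RPKM, log axis) of the 7 genes in the 6 groups; a point is the group mean and a line runs from the lowest to the highest library. Alox5ap is the highest gene of the 7 in gall bladder (813 RPKM), thymus (191) and trachea (376), and Mgst3 in small intestine tuft (453), colon (186) and the reference (160).

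Ratios of counts within a library do not depend on how libraries are scaled. The ratio of Ltc4s to Lta4h sets the enzymes of both branches after leukotriene A4 side by side. Its log2 value was -5.71, -6.25 and -5.12 in reference libraries 1 to 3 and 0.46, 0.53 and 0.47 in small intestine tuft libraries 2 to 4. It was -2.35, -1.72, -1.89 and -1.01 in colon libraries 1 to 4 and -0.16, -0.05, 0.23 and 1.30 in thymus libraries 1 to 4. Trachea pools 1 to 4 were at 2.89, 0.60, 2.55 and 2.72, and gall bladder libraries 1, 3 and 4 at 6.31, 1.42 and 6.22. Lta4h thus had more counts than Ltc4s in every reference and colon library, and fewer in every small intestine, gall bladder and trachea tuft library. These directions are of counts, and Lta4h has 6102 exon bases against 1014 for Ltc4s. Per kilobase of the exon union the direction in colon turned, with means of 19.0 RPKM for Ltc4s and 10.1 for Lta4h. That turn depends on the lengths used. Lta4h remained the higher in the reference (16.7 against 2.00 RPKM). Differences between libraries in the ratio do not depend on length.

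Small intestine tuft and reference libraries differed by 6.18 in this log2 ratio without overlap, and the exact two-sided permutation test gave p = 0.1, the smallest that 3 against 3 allows. Colon was lower than the other tuft libraries pooled by 3.56 (-1.74 ± 0.56, n = 4, against 1.82 ± 2.13, n = 14; exact permutation p = 0.00915, adjusted over 12 tests 0.0275). Gall bladder was higher by 4.34 (4.65 ± 2.80, n = 3, against 0.30 ± 1.62, n = 15; exact permutation p = 0.00490, adjusted 0.0196). Small intestine, thymus and trachea did not pass (adjusted exact permutation p = 0.831, 0.753 and 0.497). Because the other tissues are pooled, the spread in these tests includes differences between tissues as well as between libraries of 1 tissue. A small p here therefore does not measure replication within a tissue. The gall bladder difference in Ltc4s/Lta4h was lost without gall bladder library 1 or 4 (adjusted exact permutation p = 0.0882 each), and was 5.96 without library 3. That of colon was lost without colon library 1, 2 or 3 (adjusted exact permutation p of 0.0529 to 0.0574).

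The log2 ratio of Alox5ap to Alox5 was 0.15, 0.27 and 0.26 in gall bladder libraries 1, 3 and 4, so that Alox5ap had more counts there. It was -1.67, -0.96, -1.52 and -1.55 in colon libraries 1 to 4, where the counts of Alox5 exceeded those of Alox5ap most. In small intestine tuft libraries it was -0.54, -0.69 and -0.82, in thymus -0.23 to -0.67, and in trachea pools 1 to 4 -0.24, -0.52, -0.59 and -1.35. Gall bladder libraries were above all other tuft libraries, and colon overlapped with trachea pool 4 alone. Alox5 has 4106 exon bases and Alox5ap 1420, and per kilobase Alox5ap had the higher mean in every group, colon included (71.3 against 64.8 RPKM). The direction per kilobase again depends on the lengths used. Gall bladder was higher than the others pooled by 1.06 (exact permutation p = 0.00245, adjusted 0.0147) and colon lower by 1.00 (-1.43 ± 0.32, n = 4, against -0.43 ± 0.45, n = 14; exact permutation p = 0.000654, adjusted 0.00784). In the reference the ratio was 0.08 ± 0.11 against -0.68 ± 0.14 in small intestine tuft (SD, n = 3 each; exact permutation p = 0.1, the smallest possible). Of the 12 tests of ratios, 4 passed, all for colon or gall bladder, which had the lowest and highest tuft means of both ratios.

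**Figure D4:**
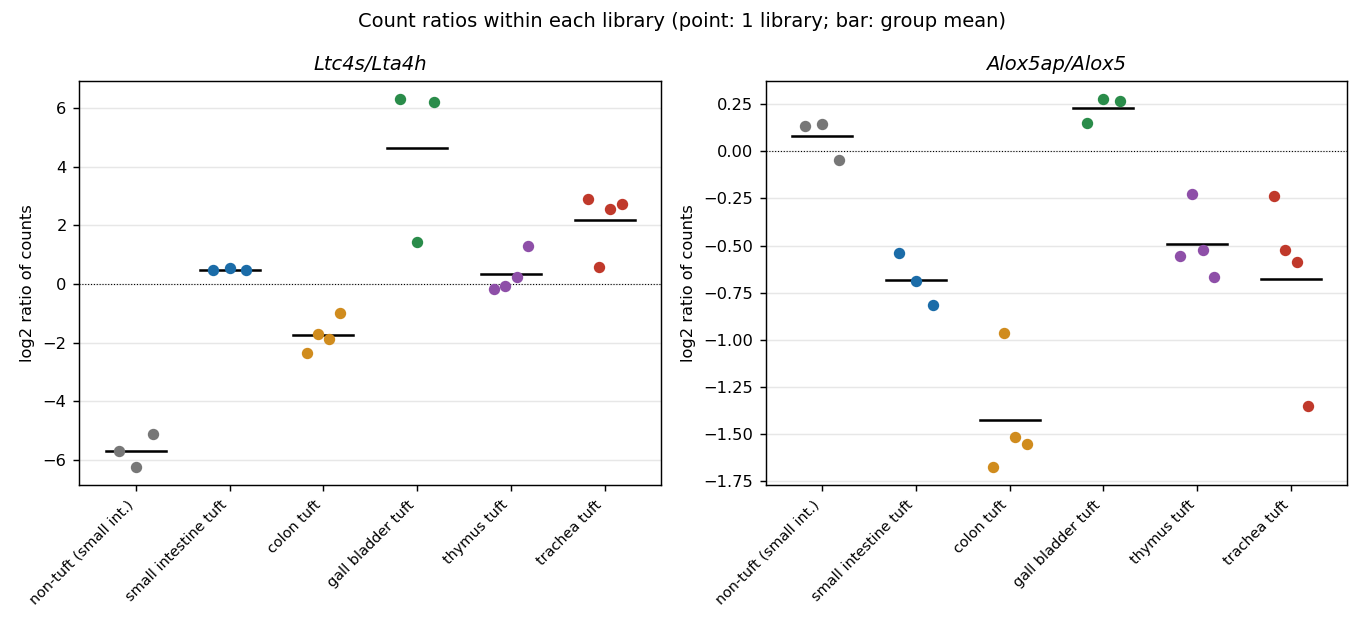
Log2 ratio of counts within each library, Ltc4s to Lta4h on the left and Alox5ap to Alox5 on the right; a point is 1 library and a bar the group mean. On the left the reference lies between -6.25 and -5.12 and gall bladder libraries at 6.31, 1.42 and 6.22; on the right gall bladder lies above 0 and colon at -1.67 to -0.96.

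Over the 18 tuft libraries, the log2 levels of Alox5, Alox5ap and Ltc4s moved together. Pearson's r was 0.92 for Alox5 with Alox5ap, 0.89 for Alox5 with Ltc4s and 0.88 for Alox5ap with Ltc4s. Taken as deviations from tissue means, r was 0.67, 0.33 and 0.32, lower for each pair. Lta4h and Mgst3 gave 0.67 (0.24 within tissues), and Pla2g4a gave between -0.28 and 0.19 with the other 6. Within tissues Pla2g4a gave -0.65 with Mgst3, -0.39 with Alox5 and -0.19 to 0.07 with the other 4. These values describe libraries that share tissues, depth and preparation.

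Genes most like each member in this measure were sought among the 7197 genes whose mean level was 20 CPM or more. For Alox5 they were Fam213a (r = 0.95) and Inpp5d (0.94), for Alox5ap Tuba1a (0.92) and Pld2 (0.91), and for Ltc4s Vav1 (0.95) and Pld2 (0.94). Vav1 was at 1216 ± 76 CPM in small intestine tuft, 1517 ± 262 in gall bladder, 464 ± 91 in trachea, 316 ± 40 in thymus and 250 ± 44 in colon, the same order of tissue means as for Ltc4s. For Lta4h the genes were Pnpt1 (0.90) and Akr1c13 (0.90), for Mgst2 Sult1b1 (0.94) and Oat (0.94), for Mgst3 Adck5 (0.95) and Trim38 (0.95), and for Pla2g4a Rragd (0.78) and Susd2 (0.76). Pla2g4a thus had the least close companions.

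Other genes that feed or drain the route were counted in the same way in small intestine tuft cells against the reference, where 13% of all genes were called higher and 13.9% lower. Of 15 other phospholipase A2 genes tested, 3 rose and 5 fell, with a median log2 fold change of -0.83 against -0.03 over all genes. Pla2g16 was at 123 ± 13.5 CPM in tuft cells and 24.1 ± 1.30 in the reference (log2 fold change 2.41; edgeR adjusted p = 6.31e-07), and Pla2g6, the calcium-independent enzyme, at 223 ± 18.3 and 43.0 ± 9.36 (2.44; adjusted p = 3.29e-06). The secreted Pla2g10 fell from 13.7 to 0.138 CPM and Pla2g2f from 17.8 to 0.477 CPM. Among 8 genes of arachidonate activation and reacylation 1 rose and 2 fell. Acsl4, an acyl-CoA synthetase that prefers arachidonic acid, rose from 4.63 ± 0.62 to 26.7 ± 3.75 CPM (2.59; adjusted p = 8.17e-06), and Acsl3 and Lpcat1 fell, the latter named here after its value was seen.

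Acsl4 was also called higher than the reference in every other tuft tissue, at 11.4 CPM in colon, 54.96 in thymus, 149 in gall bladder and 208 in trachea. Pla2g16 was called higher in all but colon (0.82 there). Of 5 genes of glutathione supply, 1 rose and 0 fell in small intestine tuft cells: Gclm, the modifier subunit of glutamate-cysteine ligase, went from 46.9 to 108 CPM (1.27; edgeR adjusted p = 0.000465). None of 5 genes for proteins that bind or phosphorylate 5-lipoxygenase was called, and Ptges fell among the 2 other genes of the MAPEG family, from a level under 1 CPM. The mean of Ptges was 63.5 CPM in thymus tuft and 31.2 CPM in trachea tuft.

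Of 6 genes tested for export and conversion of cysteinyl leukotrienes, 1 rose and 1 fell. Abcc3, a transporter of conjugates, was at 298 ± 36.9 CPM in small intestine tuft and 137 ± 32.2 in the reference (log2 fold change 1.19; edgeR adjusted p = 0.000540), and Abcc4 fell from 3.99 to 0.449 CPM. Ggt1, a gamma-glutamyl transferase of the type that acts on leukotriene C4, was at 325 ± 37.0 and 205 ± 17.1 CPM and did not reach a 2-fold change, but it was at 2.05 to 5.80 CPM in the means of the other 4 tuft tissues and called lower than the reference in each of them. Of 7 genes for inactivation of leukotriene B4, 0 rose and 1 fell, namely Ptgr1, from 125 to 49.7 CPM (-1.27; adjusted p = 0.000422). Of 5 leukotriene receptor genes 2 had counts enough to be tested in this fit, and neither was called. Outside the small intestine, the receptor gene Cysltr2 was at 48.2 ± 11.0 CPM in thymus tuft and at 0.318 CPM or less in the other group means. The transferase gene Ggt5 was at 15.1 CPM in thymus tuft and at 0.0958 CPM or less in the others. Both are named here after their values were seen.

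CD45+ cells that make leukotrienes were gated out, and their markers were checked. Of 9 mast cell markers, none could be tested in the small intestine fit for lack of counts. Their sum was 0 to 15.8 CPM in small intestine tuft, 0.146 to 0.395 in the reference, 0 to 2.94 in gall bladder, 0.116 to 0.323 in colon, 0.0353 to 0.0928 in trachea and 8.05 to 13.3 in thymus. In small intestine tuft cells the most abundant were Mcpt1, at up to 9.53 CPM (median 0), and Mcpt2, at up to 6.03 CPM (median 0.367). Mcpt2 was also at up to 2.94 CPM in gall bladder. Ms4a2 had 0 counts in all groups but thymus and Fcer1a in all tuft tissues but thymus. The part of such cells in the Ltc4s levels was not tested.

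The summed level of 12 macrophage and monocyte markers was 1767 to 3928 CPM in trachea, nearly all of it Lyz2, with Csf1r at 0.0464 CPM and C1qa at 0 counts there. It was 277 to 327 CPM in thymus, 47.9 to 136 in gall bladder, 24.3 to 55.7 in small intestine tuft, 21.9 to 38.2 in colon and 23.1 to 29.7 in the reference, and 3 of the 9 testable markers were called higher in small intestine tuft cells. Granulocyte markers summed to 215 to 1337 CPM in trachea, of which Ltf made up most, 52.5 to 117 in thymus and 27.3 or less elsewhere. T cell markers summed to 13.9 to 19.8 CPM in small intestine tuft against 2.19 to 5.53 in the reference, and 3 of the 4 testable ones were called higher there (Cd3e at 10.8 against 1.73 CPM). They summed to 3.48 to 19.8 CPM in thymus and to 1.79 or less in the other tuft tissues. B cell markers summed to 30.3 to 111 CPM in gall bladder, 21.5 to 36.1 in thymus, 0 to 126 in trachea and 3.05 or less elsewhere. The part of such cells in the levels of the 7 genes was not tested in any tissue.

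Markers of other epithelial cells were also checked, and the source of their transcripts was not tested. In trachea the 7 airway markers, led by the secretory genes Scgb1a1 and Bpifa1, summed to 22433 to 103889 CPM, above the 9295 to 15436 CPM of the 10 tuft markers in the same libraries. Airway markers were at 838 to 1480 CPM in thymus, 57.8 to 476 in gall bladder, 2.18 to 175 in small intestine tuft and 10.6 or less in colon and the reference. The 6 thymic epithelial markers summed to 634 to 777 CPM in thymus and to 51.1 or less elsewhere. In colon the goblet markers summed to 5557 to 8041 CPM, beside 5187 to 6765 CPM of the tuft markers in the same libraries. Goblet markers were at 2010 to 2498 CPM in small intestine tuft, 1527 to 2605 in thymus, 102 to 890 in trachea and 164 to 621 in gall bladder. The part of other epithelial cells in the levels of the 7 genes was not tested in any tissue.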

How the data were processed

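Poly(A) RNA of sorted cells was amplified (NuGEN Ovation RNA-Seq V2) and tagmented with Nextera XT, without molecular identifiers, per the labels' protocols. Counts are therefore of reads after amplification. EDTA released small intestine, colon and gall bladder epithelium, Liberase and DNase with Percoll were used for thymus, and Dispase and trypsin for trachea. Of 4 replicates sorted per group, 1 of non-tuft cells and 1 each of tuft cells from gall bladder and small intestine failed quality control, per the series description.

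The authors deposited raw counts, 1 whole number per gene and library, with no normalization. STAR, DESeq2 and build GRCm38 are named in the submitters' processing notes. Tool versions, annotation, read counter and strand setting were not given in the sources used here. GENCODE M21 matched 42548 of 43432 identifiers, and the other 884 held 0.0986% of counts.

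Counts were analysed with R 4.3.3, edgeR 4.0.16 and limma 3.58.1, with Python 3.11.15 and pandas 2.3.3 for joins. After filterByExpr and TMM scaling, differences were tested with edgeR's two-sided quasi-likelihood F test (trended dispersion, legacy = TRUE), with Benjamini-Hochberg adjustment over all genes of a fit. Calls needed an adjusted p below 0.05 together with a log2 difference of 1 or more in size. Standard errors are approximate, taken as the log2 difference divided by the root of F. CPM are TMM-scaled, errors on levels are SD over libraries, and ratios had 0.5 counts added to each gene. The fit was tested on simulated data. Alternatives were DESeq2 1.42.0, RLE scaling, other filters, limma voom with sample weights, a replicate block, trachea pools 1 and 2 alone and leaving out each library.

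All 7 genes are named. From each list of related genes up to 4 could be named, by the smallest adjusted p in small intestine tuft against non-tuft cells, and from each marker list 2, with defining markers at 0 added. For likeness the rule took the 2 genes of highest r, without predicted genes. The members and lists were chosen with earlier results of these data known. The p-values of the fits measure the spread between libraries within groups, each library from 1 mouse or pool. Those of the permutation tests between tuft tissues do not, because libraries of different tissues are pooled there.

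Replicate numbers are shared between groups, but no label says that a number marks a shared mouse or day. Deviations of libraries with the same number correlated at a median r of 0.000 over 45 pairs (-0.033 to 0.13), so the numbers were not taken to pair samples.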

Additional observations from a re-analysis of the deposited data

Results flagged for a closer look

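Of 27 groups of 4 libraries checked with Dixon's ratio (95% critical value 0.829), 2 had a library far from the other 3, where chance gives about 1 in 20. Ltc4s in thymus tuft cells was at 14.1 CPM in library 1 against 28.2 to 31.0 CPM in the others, with a Dixon ratio of 0.879 on the log2 scale. The log2 ratio of Ltc4s to Lta4h in trachea tuft cells was 0.60 in pool 2 against 2.55 to 2.89 in the others, with a Dixon ratio of 0.851. Pool 2 had the most sorted cells of the 4 pools (453) and the highest Lta4h level, 32.9 CPM. Groups of 3 libraries, gall bladder among them, were not checked.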

How the results depend on the processing

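Within the small intestine, 5 of the 7 genes were called under every setting tried and without any 1 library (5 to 5). Against the reference the 5 tissues gave 28 calls (25 to 29 without 1 library): small intestine 5 (4 to 5), colon 4 (3 to 4), gall bladder 6 (5 to 6), thymus 7 (6 to 7) and trachea 6 (6 to 7). Against the mean of the other 4 tuft tissues there were 16 calls (15 to 18): small intestine 4 (3 to 4), colon 5 (4 to 6), gall bladder 3 (3 to 4), thymus 3 (3 to 3) and trachea 1 (1 to 3). The trachea count was 2 under DESeq2, the 5 CPM filter and trachea pools 1 and 2 alone. The 10 pairs of tissues gave 38 calls (33 to 43), and the ratios 4 (3 to 4). The 1 reversed value was Lta4h in trachea against gall bladder, 2.37 without gall bladder library 3 against -0.40 with it (-1.02 to 2.37 over all libraries left out), where the Lta4h level of that library (53.3 CPM) accounts for the change.

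With the replicate number as a block, the counts stayed at 5, 28 and 16. Over the 10 pairs the block gave 36 calls, with 3 lost (Alox5ap in thymus and Ltc4s and Mgst2 in trachea, each against small intestine) and 1 gained (Alox5ap in gall bladder against small intestine). RLE scaling left 28 and 16 calls and, over the pairs, lost 3 (Alox5ap and Lta4h in thymus and Mgst2 in trachea, each against small intestine) and gained 2 (Pla2g4a in thymus against colon and Mgst3 in trachea against thymus), with no called value changing sign. The share of all genes called moved more than the counts of the 7 genes. Against the reference it ran from 3.93% (no filter) to 28.9% (limma voom) in small intestine, from 4.55% to 22.6% in colon and from 16.9% to 47.3% in thymus under the same settings, and from 15.4% (no filter) to 33.6% (5 CPM filter) in gall bladder and from 19.5% to 36.9% in trachea. Within the small intestine it was 6.51% in the fit of 21 libraries against 26.9% in that of 6.

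Differences under 2-fold were not called, whatever their adjusted p. The lowest count of the 7 genes was 7, for Mgst2 in gall bladder library 3. With 1 trachea pool for each age and sex, neither was tested.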
